A study of Mus musculus with 6 samples.

Results

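Peroxisome biogenesis and metabolism genes were followed by symbol through all the FPKM files of the series: 34 genes were listed and all 34 were found among the 55367 gene symbols. The list holds 13 Pex genes, whose products build the organelle, and 21 genes for enzymes and transporters of peroxisomal metabolism. FPKM at or above 1 in at least 2 libraries was required for a test, and 31 of the 34 passed, 12 of the 13 biogenesis genes and 19 of the 21 enzyme and transporter genes. *Pex11g*, *Abcd2* and *Hacl1* did not pass and are given by their values alone.

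Peroxisomes are bounded by a single membrane and take up folded proteins from the cytosol. *Pex3*, *Pex16* and *Pex19* place proteins in the membrane, *Pex5* and *Pex7* are soluble receptors that bring enzymes to the docking proteins *Pex13* and *Pex14*, *Pex2* and *Pex10* belong to a ubiquitin ligase that marks the used receptor, and *Pex6*, held at the membrane by *Pex26*, extracts it. The enzymes inside shorten very long and branched fatty acids, start the synthesis of ether lipids, and make and break down hydrogen peroxide, and in the kidney they are most abundant in the proximal tubule.

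RNA was sequenced from tubular epithelial cells of mouse kidney, with 3 groups of 2 libraries each, all collected at the same age. WT mice were wild type and received saline, ADPKD mice were *Pkd1*-/- and received saline, and ADPKD+MMPP mice were *Pkd1*-/- and received MMPP, a melanin-like nanoparticle that carries manganese and polyethylene glycol. According to the study's methods the mice were males, the knockout came from floxed *Pkd1* and a Cre fused to the estrogen receptor that was switched on with tamoxifen in young mice, and MMPP was given into a vein at intervals of days. Whether the WT mice carried the Cre or received tamoxifen, and which promoter drove the Cre, is not given in the sources used here. The labels name DBA-positive cells, which are cells bound by a plant lectin used to pick out collecting duct epithelium, and in the same text RNA from whole kidney. The study's paper speaks of isolated renal epithelial cells of the collecting duct, so the words on whole kidney differ from the paper and from the rest of the label. They do not say that the libraries of a group came from separate animals, so the p-values below measure the spread between these libraries, which may be technical.

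The treated libraries stood apart from the others in depth, in the share of odd read numbers and in the genes detected. FPKM multiplied by exon length fell on steps of whole reads, with 98.3% to 99.0% of low values within 0.05 of a whole number, and gave depths of 30.6 M and 31.0 M reads for WT, 33.1 M and 32.1 M for ADPKD, and 11.8 M and 10.9 M for ADPKD+MMPP. Among these low values, odd read numbers made up 36.7% and 37.3% for WT, 36.9% and 38.3% for ADPKD, but 8.22% and 7.44% for ADPKD+MMPP. FPKM above 0 was listed for 25260 to 25498 genes in the WT and ADPKD libraries and for 19509 and 19275 genes in the treated libraries. Across 14862 genes, log2(FPKM + 1) correlated with Pearson's r of 0.984 between the WT libraries, 0.958 between the ADPKD libraries and 0.992 between the treated libraries, and of 0.590 to 0.679 between a treated library and any other. In every group the replicates were further apart than sampling noise allows: chi-square on read pairs averaged 13.5 per gene for WT, 51.1 for ADPKD and 2.19 for ADPKD+MMPP.

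The change between treated and untreated libraries also followed gene structure. For each gene, the exon share was taken as the percent of exon sequence used by a single annotated transcript. Over 12375 protein-coding genes, the log2 fold change of ADPKD+MMPP against ADPKD had a Spearman correlation of 0.649 with the exon share, and its median ran from -1.61 in the 1748 genes with a share under 20% to 1.05 in the 2709 genes with a share of 80% or more. The same correlation was 0.0451 for ADPKD against WT. Genes are not independent replicates, and these values describe the libraries. Because all libraries with this property belong to the treated group, it cannot be told apart from the treatment. Whether these libraries were counted differently from the others was not tested. The members and lists are therefore given for that group both as fitted and after each library was centred within 20 bins of the exon share.

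**Figure D1:**
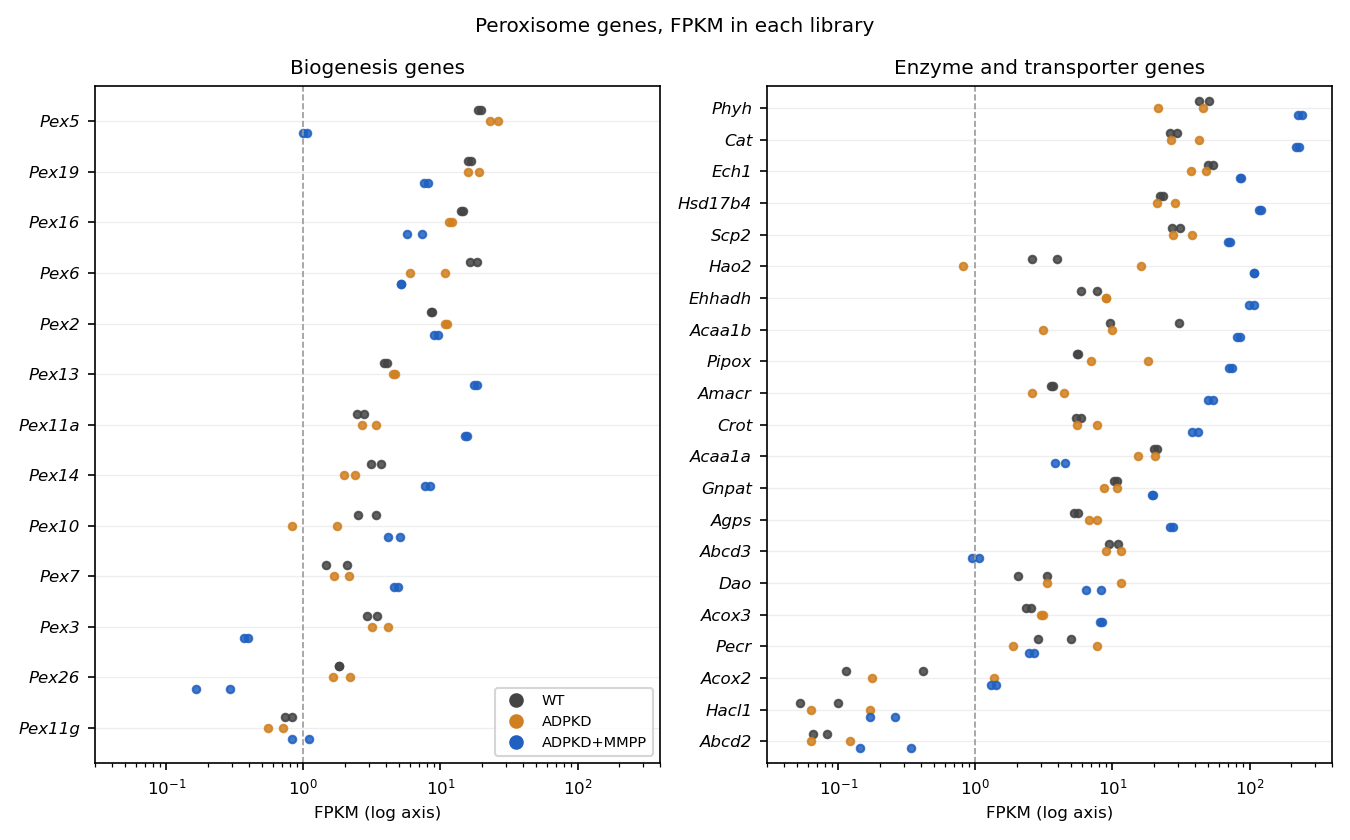
FPKM (log axis) of the 13 biogenesis genes and the 21 enzyme and transporter genes in each library, with 1 point per library and genes ordered by their mean over the 6 libraries. The dashed line marks 1 FPKM. *Cat* lies between 26.4 and 42.9 FPKM in the WT and ADPKD libraries and at 219 and 228 in the ADPKD+MMPP libraries, while *Pex5* lies at 18.7 FPKM or more in the former and at 0.988 and 1.07 in the latter.

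The targeted gene and markers of kidney cells were examined as a check of the labels. *Pkd1* (chromosome 17, 24549834 to 24596508 in GRCm38) had 17.7 and 17.2 FPKM in WT, 7.64 and 8.91 in ADPKD, and 4.34 and 3.99 in ADPKD+MMPP. It was lower in both *Pkd1*-/- groups than in WT with no overlap, by -0.998 (SE 0.13) on the log2 scale in ADPKD and by -1.84 (SE 0.13) in ADPKD+MMPP, with adjusted p of 0.00566 and 7.23e-05 (limma, Benjamini-Hochberg). Against ADPKD the treated libraries were lower by -0.84 (SE 0.13) as fitted, which was called, and by -0.35 (SE 0.14) after centring, which was not. RNA of collecting duct principal cells was abundant in all libraries: the summed FPKM of 10 markers was 2517 and 3356 in WT, 4336 and 3293 in ADPKD, and 9495 and 9624 in ADPKD+MMPP. *Aqp2* was their most abundant gene, and *Avpr2* was listed at 0 in ADPKD replicate 2 and under 0.06 FPKM in the others. Markers of cells that DBA should not select were present too, with 5 podocyte markers, led by *Podxl*, summing to 899.6 and 1231 FPKM in WT.

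The summed FPKM of markers of the proximal tubule, whose cells hold most peroxisomes in the kidney, differed strongly between the groups. The 15 genes summed to 1104 and 792 FPKM in WT, 2233 and 1603 in ADPKD, and 23528 and 22368 in ADPKD+MMPP. Abundant genes lead these sums. The median log2 fold change of the 15 was -0.02 in ADPKD against WT and 2.73 in ADPKD+MMPP against ADPKD. *Kap* was the most abundant, with 234 and 101.3 FPKM in WT, 509 and 64.0 in ADPKD, and 12822 and 12116 in ADPKD+MMPP, and none of the 15 was at 0 in any library. In these bulk libraries, more or fewer cells of a type and more or less RNA per cell cannot be told apart. The part that a different content of proximal tubule RNA has in the results on peroxisome genes was not tested.

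In WT libraries the enzyme genes were more abundant than the biogenesis genes. The 21 enzyme and transporter genes together had 306 and 253.5 FPKM and the 13 biogenesis genes 97.8 and 94.6. *Ech1* (54.1 and 49.9 FPKM), an isomerase of unsaturated fatty acids, and *Phyh* (51.0 and 42.7 FPKM), the hydroxylase of phytanic acid, led the enzymes. The import receptor *Pex5* (19.6 and 18.7 FPKM) and *Pex6* (18.4 and 16.4 FPKM) led the biogenesis genes. At the other end, *Abcd2*, a transporter of very long chain acyl-CoA, was at 0.0825 and 0.0652 FPKM and *Hacl1*, a lyase of alpha-oxidation, at 0.0992 and 0.0523. They stayed under 0.34 FPKM in all 6 libraries, on 8 to 28 recovered reads each, and 33.3% of the exon bases of *Hacl1* also belong to *Gm49387* or Btd. *Pex11g*, of the family that elongates and divides peroxisomes, had 0.732 and 0.827 FPKM in WT, 0.712 and 0.551 in ADPKD, and 0.823 and 1.11 in ADPKD+MMPP, with 41.1% of its exon bases shared with *Gm44775* on the other strand.

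In untreated ADPKD few of these genes were called. Of the 31 members tested, limma called 0 higher and 2 lower in ADPKD than in WT, where a call needed a fold change of at least 1.5 and an unadjusted p under 0.05. By the same rule 14.2% of the 14862 tested genes were called higher and 12.5% lower. At an unadjusted p under 0.05 with no fold required, 3 members were higher and 3 lower, beside 3220 and 2818 of the 14862 genes. Log2 fold changes had a median of 0.10 over the members (0.08 for biogenesis genes, 0.15 for enzyme and transporter genes) and 0.03 over all tested genes, and the libraries of the groups overlapped for 18 of the 31, beside 33.0% of all tested genes.

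The 2 members called were *Pex6* and *Pex10*. *Pex6*, the ATPase that pulls *Pex5* out of the membrane, had 18.4 and 16.4 FPKM in WT and 10.7 and 5.97 in ADPKD. Both ADPKD libraries lay below both WT libraries, and the 2 ADPKD libraries differed from each other by more than the WT libraries did. The log2 fold change was -1.03 (SE 0.25), with an adjusted p of 0.0335 (limma, Benjamini-Hochberg), and *Pex6* was called lower under every alternative run. *Pex10*, a RING subunit of the ubiquitin ligase, had 2.48 and 3.38 FPKM in WT and 1.77 and 0.823 in ADPKD. Its groups did not overlap either, but its change of -0.80 (SE 0.24) had an adjusted p of 0.0615 (limma, Benjamini-Hochberg), and its call was lost without WT replicate 2 (-0.63, unadjusted p 0.105) and without ADPKD replicate 2 (-0.50, unadjusted p 0.0630). *Pex26*, the anchor of *Pex6*, had 1.82 and 1.81 FPKM in WT and 1.64 and 2.17 in ADPKD, and *Pex2*, the other listed RING subunit, 8.53 and 8.62 in WT and 11.2 and 10.7 in ADPKD, a change of 0.32 (SE 0.11) that stayed under the required fold.

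Of the remaining biogenesis genes, *Pex5* (0.34, SE 0.12) and *Pex14* (-0.46, SE 0.14) had unadjusted p of 0.0351 and 0.0162 and also stayed under the required fold. *Pex5* had 22.9 and 26.1 FPKM in ADPKD, both above its WT libraries. The membrane assembly genes ranged from -0.27 for *Pex16* to 0.14 for *Pex3*, and *Pex7*, *Pex13* and *Pex11a* had changes of 0.07, 0.17 and 0.15.

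The enzyme genes differed between the 2 ADPKD libraries. By limma 0 of the 19 tested were called (*Agps* alone had an unadjusted p under 0.05), and in 18 of the 19 replicate 1 was higher than replicate 2, with a median difference of 0.44 on the log2 scale, against 0.03 over all tested genes. *Hao2*, an oxidase of 2-hydroxy acids, had 3.96 and 2.59 FPKM in WT and 16.3 and 0.807 in ADPKD. The WT libraries of *Hao2* lay between the ADPKD libraries, which differed 20.2-fold. *Dao*, the D-amino acid oxidase, had 3.33 and 2.04 FPKM in WT and 11.5 and 3.34 in ADPKD, *Pipox*, which oxidizes pipecolic acid and sarcosine, 5.50 and 5.62 in WT and 18.1 and 6.92 in ADPKD, and *Phyh* 45.7 and 21.4 in ADPKD. In *Dao* and *Pipox* both ADPKD libraries were above both WT libraries, with changes of 1.02 (SE 0.50) and 0.91 (SE 0.39) that limma did not call. Other lists had this difference too. In ADPKD replicate 1, 16 of 17 genes of mitochondrial beta-oxidation (median 0.47) and 38 of 44 other peroxisome genes (0.36) were higher, as were 14 of 15 proximal tubule markers (1.33), 5 of 5 of the thick ascending limb (1.71), 7 of 9 of principal cells (1.22), 5 of 5 of podocytes (0.99) and 5 of 6 of intercalated cells (0.95). Markers of macrophages (1 of 6, -0.27), fibroblasts (1 of 5, -0.05) and endothelium (2 of 5, -0.01) were not. In WT replicate 1, 17 of the 19 enzyme genes, 17 of 17 genes of mitochondrial beta-oxidation and 33 of 44 other peroxisome genes were higher. So were 13 of the 15 proximal tubule markers, 5 of 5 of the thick ascending limb and 5 of 5 of endothelium. Fewer were higher among markers of principal cells (1 of 9, -0.30) and podocytes (0 of 5, -0.56). For intercalated cells, macrophages and fibroblasts the counts were 2 of 6, 3 of 6 and 2 of 5.

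Calls of enzyme genes in ADPKD appeared when a single library was left out. Without ADPKD replicate 2, 6 enzyme genes were called higher than WT, namely *Hao2* (2.03), *Dao* (1.78), *Pipox* (1.54), *Acox2* (0.92), *Pecr* (0.85) and *Cat* (0.60), and *Pex6* was the only member called lower, beside 14.4% of all tested genes higher and 11.4% lower in that fit. Without ADPKD replicate 1, 0 members were called higher and 5 lower, namely *Acaa1b* (-2.14), *Pex6* (-1.40), *Hao2* (-1.22), *Pex10* (-1.10) and *Phyh* (-1.09). These 5 are 16.1% of the members tested, and 16.1% of all tested genes were called lower in that fit. *Hao2* was thus called in opposite directions by either library alone, where the lone library was assumed to vary like the other groups. *Acaa1b*, 1 of 2 genes for the thiolase that ends each round of peroxisomal beta-oxidation, had 30.4 and 9.52 FPKM in WT and 9.89 and 3.13 in ADPKD, so that its groups overlapped, and its change of -1.44 (SE 0.64) was called lower without WT replicate 2 (-2.23) and after centring by exon share (-1.46). With the replicate number as a block, limma called *Acaa1b* lower (-1.44, unadjusted p 0.0152) and *Pipox* higher (0.91, unadjusted p 0.0496), although the labels do not say that replicate numbers pair the libraries.

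MMPP-treated libraries differed from untreated ADPKD libraries in most members. Of 31 members, 19 were called higher and 7 lower, beside 27.9% of all tested genes called higher and 43.0% lower. Treated and untreated libraries overlapped in 3 members, while 19 were higher and 9 lower without overlap, beside 12.2%, 36.1% and 51.7% of all tested genes. Among enzyme and transporter genes 14 of 19 were called higher and 2 lower, with a median log2 fold change of 1.77, and among biogenesis genes 5 of 12 were called higher and 5 lower, with a median of -0.38. The median over all tested genes was -0.36. After centring by exon share, 16 enzyme and transporter genes were called higher and 2 lower (median 2.02), and 6 biogenesis genes higher and 2 lower (median 0.60), beside 33.9% called higher and 24.4% lower and a median of 0.15 over the 12375 protein-coding genes. A difference between the classes was not tested. Over the 31 members, the log2 fold change had a Spearman correlation of 0.745 with the exon share, beside the 0.649 over protein-coding genes.

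Higher calls made up 73.1% of the members' calls as fitted and 84.6% after centring. For biogenesis genes alone they were 5 of 10 calls as fitted, 5 of 11 with a common sum, 5 of 8 under quantile normalization and 6 of 8 after centring. Over all tested genes they were 39.3% of calls as fitted, 31.5% with a common sum and 54.0% under quantile normalization. After centring they were 58.2% of calls over protein-coding genes. The summed FPKM of the 21 enzyme and transporter genes was 342.5 and 210.3 in ADPKD and 1265 and 1265 in ADPKD+MMPP, and that of the 13 biogenesis genes 95.9 and 88.5 in ADPKD and 81.6 and 82.5 in ADPKD+MMPP. In proximal tubule markers, 12 of 15 were called higher and 0 lower, with a median of 2.73, and 12 at an unadjusted p under 0.05 alone.

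**Figure D2:**
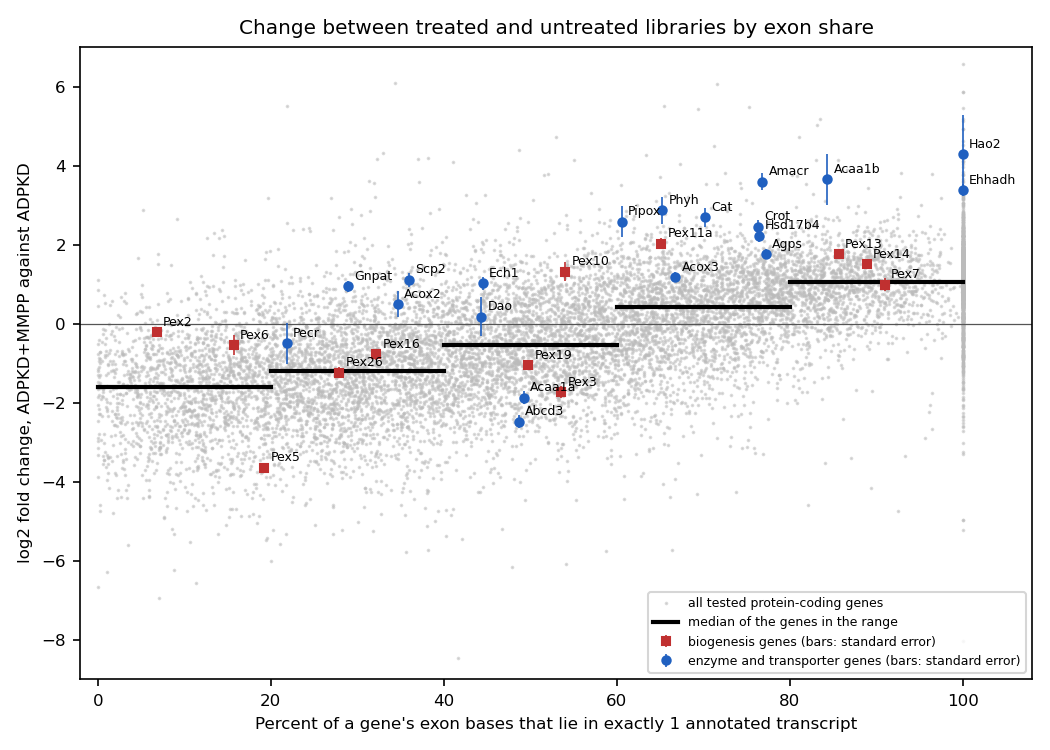
Log2 fold change of ADPKD+MMPP against ADPKD (y axis) over the exon share, the percent of exon sequence used by a single transcript (x axis), for 12375 protein-coding genes (grey), the 12 tested biogenesis genes (squares) and the 19 tested enzyme and transporter genes (circles), with standard errors; black lines are medians of all genes in ranges of 20%. *Pex5* lies at 19.2% and -3.65 and *Hao2* and *Ehhadh* lie at 100% with 4.29 and 3.39.

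The import receptors went opposite ways as fitted. *Pex5* (chromosome 6, 124396816 to 124415067) had 22.9 and 26.1 FPKM in ADPKD and 0.988 and 1.07 in ADPKD+MMPP, on 2991 and 3296 recovered reads against 46 and 46. The treated libraries lay below all 4 others. The log2 fold change was -3.65 (SE 0.12; adjusted p 2.21e-05, limma with Benjamini-Hochberg), the lowest of the members, and -1.78 (SE 0.13) after centring, with an exon share of 19.2% over its 8 transcripts. *Pex7*, the receptor of the other targeting signal, has an exon share of 91.0% and had 2.09 and 1.46 FPKM in WT, 2.14 and 1.67 in ADPKD and 4.90 and 4.56 in ADPKD+MMPP, which was called higher (0.99, SE 0.16) as fitted and turned to -0.10 (SE 0.17) after centring.

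The 3 genes of membrane assembly were called lower as fitted, as were 43.0% of all tested genes. *Pex3*, which anchors *Pex19* on the membrane, had 3.46 and 2.92 FPKM in WT, 4.11 and 3.15 in ADPKD and 0.393 and 0.367 in ADPKD+MMPP. *Pex19*, the chaperone of membrane proteins, had 16.6 and 15.8 in WT, 18.9 and 16.0 in ADPKD and 7.59 and 8.17 in ADPKD+MMPP, and *Pex16* 14.2 and 14.5 in WT, 11.5 and 12.1 in ADPKD and 5.68 and 7.28 in ADPKD+MMPP. In each of the 3 the treated libraries lay below all others, but the outcome after centring differed between the genes. *Pex3* fell by 1.74 (SE 0.15) as fitted and by 1.02 (SE 0.14) after centring, whereas *Pex19* went from -1.05 (SE 0.13) to -0.26 (SE 0.13), which was not called, and *Pex16* from -0.78 (SE 0.14) to 0.70 (SE 0.13), which was called higher.

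In docking and division, *Pex13* and *Pex11a* were called higher in both forms. *Pex13* (chromosome 11, 23646479 to 23665959) had 3.88 and 4.05 FPKM in WT, 4.51 and 4.68 in ADPKD and 18.5 and 17.5 in ADPKD+MMPP. *Pex11a*, which elongates the organelle before division, had 2.78 and 2.48 in WT, 3.40 and 2.66 in ADPKD and 15.1 and 15.6 in ADPKD+MMPP. Both were above all untreated libraries. Against ADPKD they rose by 1.76 (SE 0.11) and 2.02 (SE 0.14), and after centring by 0.65 (SE 0.12) and 1.87 (SE 0.12). *Pex14* had 3.10 and 3.65 in WT, 2.39 and 1.96 in ADPKD and 7.71 and 8.33 in ADPKD+MMPP, a change of 1.51 (SE 0.14) that was 0.40 (SE 0.13) and not called after centring, and 28.3% of its exon bases are shared with *Gm17029* on the other strand. *Pex11g*, the other division gene, was not tested. Its treated libraries lay above both ADPKD libraries and overlapped WT.

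For the genes of receptor removal the fitted and centred values differed. *Pex10* rose from 1.77 and 0.823 FPKM in ADPKD to 5.08 and 4.11, by 1.31 (SE 0.24) as fitted and 2.03 (SE 0.23) after centring. *Pex6* had 10.7 and 5.97 in ADPKD and 5.18 and 5.17 in ADPKD+MMPP, a change of -0.55 (SE 0.25) that was not called as fitted and became 1.32 (SE 0.24), called higher, after centring. *Pex2*, with the lowest exon share of the members at 6.83%, had 9.55 and 8.96 FPKM in ADPKD+MMPP and was likewise uncalled as fitted (-0.22, SE 0.11) and called higher after centring (1.89, SE 0.11). *Pex26* went from -1.24 (SE 0.14), called lower at 0.164 and 0.291 FPKM on 11 and 18 recovered reads in the treated libraries, to 0.55 (SE 0.16), not called.

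**Figure D3:**
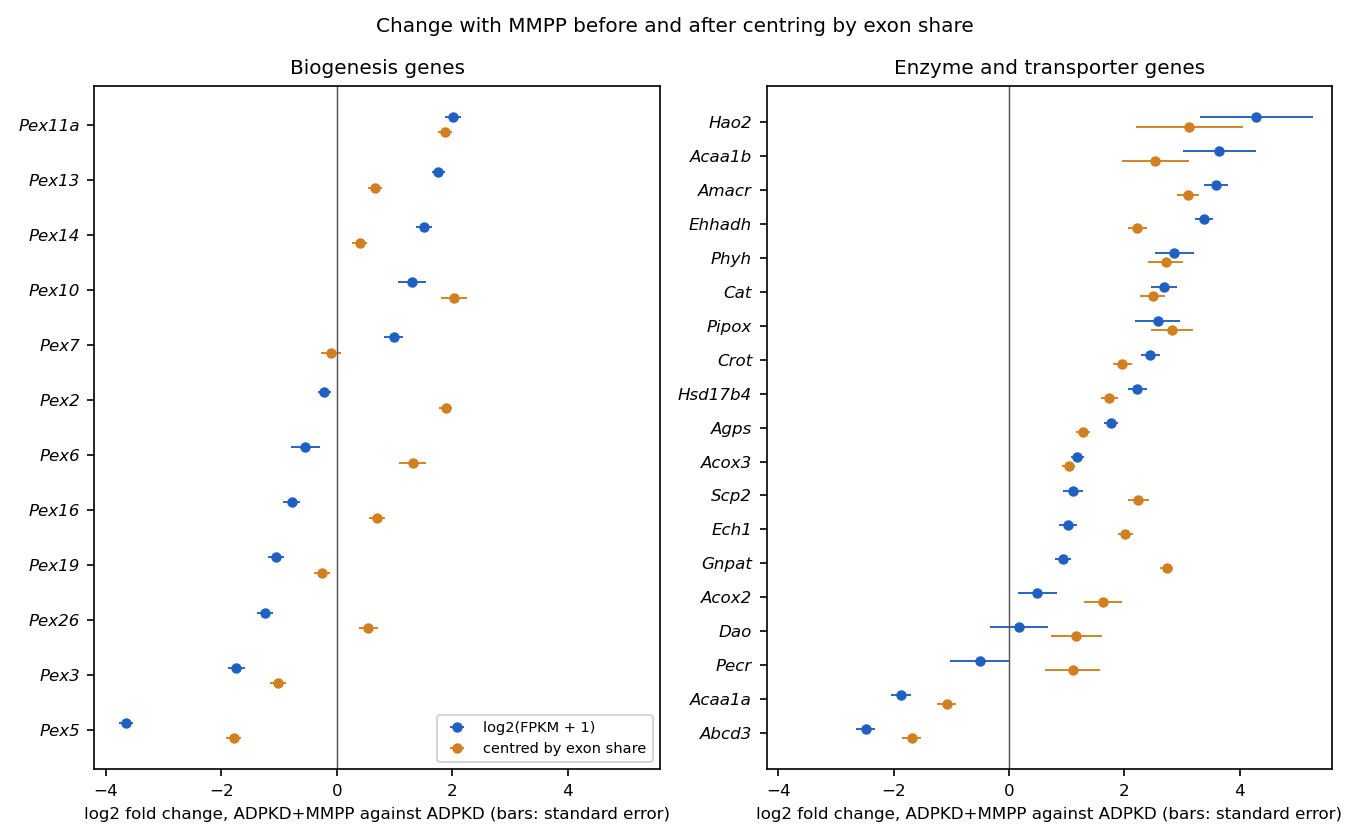
Log2 fold change of ADPKD+MMPP against ADPKD for each tested biogenesis gene and each tested enzyme and transporter gene, as fitted on log2(FPKM + 1) and after centring by exon share, with standard errors as bars. *Pex5*, *Pex3*, *Pex19*, *Abcd3* and *Acaa1a* lie below 0 in both, *Pex2*, *Pex6*, *Pex7*, *Pex16*, *Pex26* and *Pecr* change side, and all 14 enzyme and transporter genes called higher stay above 0.

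Of the 4 genes listed for hydrogen peroxide, apart from the acyl-CoA oxidases of beta-oxidation, 3 were called higher and 0 lower as fitted (27.9% and 43.0% of all tested genes), and 4 and 0 after centring (33.9% and 24.4% of protein-coding genes). *Hao2* (chromosome 3, 98874521 to 98893239) had 107.6 and 108.4 FPKM in ADPKD+MMPP, against 16.3 and 0.807 in ADPKD. Catalase, encoded by *Cat*, had 29.8 and 26.4 in WT, 42.9 and 26.8 in ADPKD and 219 and 228 in ADPKD+MMPP, and *Pipox* 18.1 and 6.92 against 74.5 and 70.4. In all 3 genes the treated libraries were above all others and close to each other. *Hao2* rose by 4.29 (SE 0.98; adjusted p 0.00862, limma with Benjamini-Hochberg), *Cat* by 2.68 (SE 0.23) and *Pipox* by 2.58 (SE 0.39), and after centring the changes were 3.13, 2.49 and 2.83, all called. The size of the *Hao2* change rests on ADPKD libraries that differed 20.2-fold. Without ADPKD replicate 2 no enzyme gene rose by more than 3.38, and without ADPKD replicate 1 the largest rise was 5.92. *Dao*, not called as fitted, had 11.5 and 3.34 against 6.43 and 8.26, with overlapping groups and a change of 0.17 (SE 0.50), which became 1.17 (SE 0.44), called higher, after centring.

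The list kept 10 genes under beta-oxidation, although *Pecr* among them encodes a reductase and not a step of that pathway. Of these 10 genes, 7 were called higher and 1 lower as fitted (27.9% and 43.0% of all tested genes). After centring 8 and 1 were called (33.9% and 24.4% of protein-coding genes). *Ehhadh*, the L-bifunctional enzyme (chromosome 16, 21761287 to 21787807), had 7.71 and 5.87 FPKM in WT, 9.01 and 8.90 in ADPKD and 98.4 and 107.9 in ADPKD+MMPP. *Amacr*, the racemase that admits branched chains to the pathway, had 3.69 and 3.54 in WT, 4.41 and 2.57 in ADPKD and 49.6 and 54.4 in ADPKD+MMPP. Both genes were above every untreated library, with changes of 3.39 (SE 0.15) and 3.59 (SE 0.21) as fitted and 2.23 and 3.10 after centring. *Ech1*, with 48.0 and 37.1 against 85.7 and 87.3, had a smaller change of 1.02 (SE 0.16), which was 2.02 (SE 0.13) after centring. *Hsd17b4*, the D-bifunctional enzyme, rose by 2.23, *Acox3* by 1.18 and *Scp2* by 1.11, all called in both forms. *Pecr*, a reductase of enoyl-CoA, had 4.98 and 2.88 FPKM in WT, 7.70 and 1.89 in ADPKD and 2.46 and 2.66 in ADPKD+MMPP, so that treated and ADPKD libraries overlapped. *Acox2* was low, with 0.415 and 0.113 FPKM in WT, 1.37 and 0.177 in ADPKD and 1.42 and 1.29 in ADPKD+MMPP. Its treated and ADPKD libraries overlapped too. *Acox2* (0.49) and *Pecr* (-0.50) were not called as fitted. After centring *Acox2* was called higher (1.63) and *Pecr* was not (1.11).

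The close paralogs *Acaa1a* and *Acaa1b*, both on chromosome 9, went opposite ways. *Acaa1a* had 21.1 and 19.9 FPKM in WT, 20.5 and 15.4 in ADPKD and 3.80 and 4.46 in ADPKD+MMPP. *Acaa1b* had 9.89 and 3.13 against 85.3 and 80.8. The treated libraries were thus lowest for *Acaa1a* and highest for *Acaa1b*, with changes of -1.87 (SE 0.17) and 3.65 (SE 0.64) as fitted and -1.08 (SE 0.17) and 2.54 (SE 0.59) after centring, all called. Their exon shares are 49.3% and 84.4%, reads that match both copies could be assigned to either, and 11.4% of the exon bases of *Acaa1b* overlap *Dlec1* on the other strand, so the split between them is uncertain. Their summed FPKM was 51.5 and 29.4 in WT, 30.4 and 18.5 in ADPKD and 89.1 and 85.2 in ADPKD+MMPP.

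In alpha-oxidation, *Phyh* rose from 45.7 and 21.4 FPKM in ADPKD to 243 and 227 in ADPKD+MMPP, by 2.87 (SE 0.34) as fitted and 2.72 (SE 0.30) after centring. The ether lipid genes *Agps* and *Gnpat* were called higher as well, by 1.77 (SE 0.12) and 0.94 (SE 0.14), and by 1.28 and 2.73 after centring. Transport divided: *Crot*, which makes carnitine esters that leave the organelle, was called higher (2.45, SE 0.17), whereas *Abcd3*, the transporter subunit for acyl-CoA import, had 10.9 and 9.50 FPKM in WT, 11.6 and 8.94 in ADPKD and 1.05 and 0.945 in ADPKD+MMPP and was called lower by -2.48 (SE 0.16). *Crot* and *Abcd3* kept these calls after centring, at 1.97 and -1.69.

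The treated libraries were also compared with WT, under the same limit that the treatment cannot be told apart from other properties of these libraries. Here 19 members were called higher and 8 lower, beside 30.1% and 43.8% of all tested genes. This comparison shares the treated libraries with the previous one, and the ADPKD libraries enter both the first comparison and the previous one, so these are not independent. The libraries of the 2 groups overlapped for 0 of the 31 members, with 22 higher and 9 lower in ADPKD+MMPP, beside 8.10%, 38.9% and 53.0% of all tested genes. Enzyme and transporter genes were called higher in 15 cases and lower in 2 (median 2.12), biogenesis genes higher in 4 and lower in 6 (median -0.43), and the median over all tested genes was -0.36. After centring the counts were 16 and 2 for enzyme and transporter genes (median 2.13) and 4 and 2 for biogenesis genes (median 0.37), beside 35.8% called higher, 26.7% lower and a median of 0.17 over protein-coding genes. Higher calls were 70.4% of the members' calls as fitted and 83.3% after centring, and 4 of 10 and 4 of 6 calls for biogenesis genes. They were 40.8% over all tested genes as fitted and 57.3% over protein-coding genes after centring.

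The largest differences from WT were in the enzymes already named. *Hao2* (4.69, SE 0.98), *Ehhadh* (3.75, SE 0.15), *Amacr* (3.52, SE 0.21) and *Pipox* (3.49, SE 0.39) led the higher side, with 3.39, 2.45, 3.02 and 3.70 after centring. *Cat* was 2.95 (SE 0.23) higher and *Phyh* 2.31 (SE 0.34). Treated libraries therefore lay far above WT in these genes. *Acaa1b* (2.21, SE 0.64) was called as fitted and not after centring (1.08, SE 0.59), nor without WT replicate 2 (1.42), treated replicate 1 (2.17) or treated replicate 2 (2.25). *Acox2* (0.91, SE 0.34) was called as fitted and lost the call without WT replicate 1 (1.08), WT replicate 2 (0.73), treated replicate 1 (0.87) or treated replicate 2 (0.95), with a pseudocount of 0.1 and with no filter, while after centring it was called higher (2.096). On the lower side *Pex5* (-3.31, SE 0.12), *Abcd3* (-2.48, SE 0.16), *Acaa1a* (-2.07, SE 0.17) and *Pex3* (-1.60, SE 0.15) stayed called after centring, at -1.34, -1.77, -1.35 and -0.89. *Pex6* (-1.58), *Pex26* (-1.20) and *Pex16* (-1.05), called lower as fitted, had 0.39, 0.55 and 0.36 after centring, and *Pex7* (1.06) and *Pex14* (1.05), called higher, had -0.14 and -0.08. *Pex19* (-0.95) lost its call after centring (-0.24). *Pex13* (1.94), *Pex11a* (2.17), *Crot* (2.63), *Hsd17b4* (2.33), *Agps* (2.12), *Acox3* (1.42), *Scp2* (1.26), *Gnpat* (0.83) and *Ech1* (0.72) were called higher in both forms. The last 2 lost the call with a common sum (0.46 and 0.33), and *Ech1* also under quantile normalization (0.34). *Dao* (1.19), *Pex10* (0.52), *Pex2* (0.10) and *Pecr* (-0.44) were not called as fitted and were called higher after centring, at 2.16, 1.22, 2.07 and 1.18.

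A wider list of 51 other peroxisome genes, of which 44 were tested, showed where the members lie within the organelle's genes. In ADPKD against WT 1 was called higher and 4 lower (2.27% and 9.09%, beside 14.2% and 12.5% of all tested genes), with a median of -0.03. *Paox*, a polyamine oxidase, had 1.01 and 0.731 FPKM in WT and 1.82 and 1.78 in ADPKD (0.59; 0.56 and not called after centring), and the 3 lowest calls were the acyl-CoA thioesterase *Acot3* (-0.89), the glutathione transferase *Gstk1* (-0.82) and the mevalonate pathway kinase *Pmvk* (-0.71). In ADPKD+MMPP against ADPKD 14 were called higher and 15 lower (31.8% and 34.1%, beside 27.9% and 43.0% of all tested genes), with a median of 0.14. After centring 23 and 6 were called (52.3% and 13.6%, beside 33.9% and 24.4% of protein-coding genes), with a median of 0.75. The highest calls were *Nudt19*, a CoA diphosphatase (8.47 and 6.36 FPKM in WT, 11.6 and 5.85 in ADPKD, 88.5 and 79.9 in ADPKD+MMPP; 3.19), *Slc27a2*, an acyl-CoA synthetase also on the proximal tubule list (2.93), and the thioesterase *Acot12* (2.82). The lowest were the protease *Lonp2* (11.4 and 7.77 FPKM in ADPKD, 0.190 and 0.0343 in ADPKD+MMPP; -3.23), the membrane channel *Mpv17* (-2.55) and the membrane tether *Acbd5* (-2.39). All 6 kept their calls after centring. *Mpv17* was kept on the list, although its protein belongs to the mitochondrial inner membrane and not to the peroxisome.

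Against WT, 14 of these 44 genes were called higher and 16 lower (30.1% and 43.8% of all tested genes), with a median of -0.06, and 22 and 6 after centring (35.8% and 26.7% of protein-coding genes), with a median of 0.55. *Slc27a2* (4.08), *Acot12* (3.36) and *Nudt19* (3.35) were again the highest, and *Lonp2* (-3.42), *Acbd5* (-2.66) and *Mpv17* (-2.51) the lowest. Mitochondrial beta-oxidation, given for comparison by 17 genes, was called in 0 genes in either direction in ADPKD against WT by limma (2 higher and 2 lower at an unadjusted p under 0.05 alone), with a median of -0.14. Of all tested genes 14.2% were called higher and 12.5% lower there. In ADPKD+MMPP against ADPKD 10 of the 17 were called higher and 3 lower (27.9% and 43.0% of all tested genes), with a median of 1.65. The peroxisomal enzyme and transporter genes had a median of 1.77. After centring 12 and 3 of the 17 were called (33.9% and 24.4% of protein-coding genes), with a median of 1.39. Against WT the counts were 10 and 3, with a median of 1.96, and 13 and 4 after centring, with a median of 1.43. A difference between the peroxisomal and the mitochondrial list was not tested.

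Regulators of peroxisome genes that serve other pathways too were read as well. *Ppara*, the nuclear receptor for fatty acids, did not pass the filter on low values, with 0.742 and 0.488 FPKM in WT, 0.583 and 1.07 in ADPKD, and 0.971 and 0.478 in ADPKD+MMPP. Its partner *Rxra* had 15.1 and 15.4 in WT, 9.60 and 10.996 in ADPKD, and 13.8 and 15.6 in ADPKD+MMPP. The ADPKD libraries of *Rxra* were the lowest, at -0.52 (SE 0.13) from WT, under the required fold. Treated libraries differed from them by 0.48 (SE 0.13) as fitted, not called, and by 1.71 after centring, called higher. The coactivator *Ppargc1a* had 6.90 and 8.47 in WT, 7.78 and 6.13 in ADPKD, and 10.9 and 11.8 in ADPKD+MMPP, and was called higher in ADPKD+MMPP than in ADPKD (0.64, SE 0.16), and at 1.36 after centring.

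Markers of other kidney cells also moved between the groups, and their part in the results above was not tested. Of all tested genes, 14.2% were called higher and 12.5% lower in ADPKD than in WT. The shares were 27.9% and 43.0% in ADPKD+MMPP against ADPKD, and 30.1% and 43.8% against WT. After centring these last 2 comparisons had 33.9% and 24.4%, and 35.8% and 26.7%, of protein-coding genes. Of the 15 proximal tubule markers 5 were called higher and 1 lower in ADPKD than in WT (median -0.02), and 13 and 0 in ADPKD+MMPP than in WT (median 3.58). After centring 14 were called higher and 0 lower in ADPKD+MMPP than in ADPKD (median 3.02), and 13 and 0 in ADPKD+MMPP than in WT (median 4.01). Principal cell markers were called higher in 3, 6 and 4 of 9 tested and lower in 0, 2 and 1, in the order ADPKD against WT, ADPKD+MMPP against ADPKD, and ADPKD+MMPP against WT. In the same order, intercalated cell markers, led by *Slc26a4*, were higher in 0, 5 and 1 of 6 and lower in 6, 0 and 1. Thick ascending limb markers, led by *Umod*, were higher in 0, 1 and 1 of 5 and lower in 2, 1 and 3, and distal convoluted tubule markers, led by *Slc12a3*, with *Pvalb* listed at 0 in ADPKD replicate 2, were higher in 1, 2 and 0 of 4 and lower in 2, 2 and 2. After centring, the higher and lower calls against ADPKD and then against WT were 1 and 1, 3 and 1 for principal cells, 5 and 0, 0 and 5 for intercalated cells, 4 and 0, 1 and 1 for the thick ascending limb, and 2 and 1, 2 and 1 for the distal convoluted tubule.

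Podocyte markers were called lower in 5, 3 and 5 of 5 and higher in 0 each time. Endothelial markers, led by *Plvap*, were higher in 1, 0 and 1 of 5 and lower in 4, 2 and 4. Macrophage markers, led by *Lyz2*, were higher in 6, 3 and 4 of 6 and lower in 0, 3 and 1, and fibroblast markers, led by *Pdgfrb*, higher in 3, 2 and 3 of 5 and lower in 1, 3 and 2. After centring, the calls in the same form were 0 and 5, 0 and 5 for podocytes, 0 and 5, 0 and 5 for endothelium, 2 and 1, 5 and 1 for macrophages, and 0 and 3, 3 and 2 for fibroblasts. Summed macrophage markers were 63.8 and 65.0 FPKM in WT, 478.5 and 575 in ADPKD, and 1056 and 1108 in ADPKD+MMPP.

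Promoters were searched because the study concerns CREB, a transcription factor that binds the cAMP response element (CRE). RefSeq windows (GRCm38.p6) from 250 bases before to 50 after the start were found for 29 of the 34 members, 36 windows in all. The full CRE, TGACGTCA, which reads the same on both strands, was in 2 of these 36 windows (5.56%) and in 588 of 32851 windows of all genes (1.79%). Its shorter form TGACG, searched on both strands and also counted inside a full CRE, was in 12 of the 36 (33.3%) and in 20.8% of all. The direct repeat known as DR1, bound by PPARA with RXRA and searched on both strands as AGGNCA repeated after 1 base, was in 0 of the 36 and in 0.381% of all. Both full CREs were in biogenesis genes, the docking gene *Pex13* and the division gene *Pex11g*. They are shown with 11 bases on each side, on the minus strand as the genes are read, with the CRE in capitals. The CRE begins 83 bases before the RefSeq start of *Pex13* (chr11:23665948-23665977) and 4 bases before that of *Pex11g* (chr8:3467634-3467663), where it spans the start.
Pex13: acgccttggccTGACGTCAggcgtgggcgg
Pex11g: cccgccctgggTGACGTCAcgaccgagttg
A match describes letters in a window and is not evidence of binding. *Pex13* was called higher in ADPKD+MMPP and *Pex11g* was not tested.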

How the data were processed

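The authors aligned reads to GRCm38 and counted them on genes, with HISAT2 2.1.0 and featureCounts 1.6.0 according to the study's methods, and deposited FPKM for 6 libraries. How FPKM was computed and whether counting used strand are not given in the sources used here. From these FPKM, the 14862 genes with at least 1 in at least 2 libraries entered 1 limma fit (version 3.58.1, R 4.3.3) of log2(FPKM + 1) over the 6 libraries, without a replicate block, and p-values were adjusted over all of them by Benjamini-Hochberg. The added 1 shrinks the fold changes of genes with low FPKM. Called means a fold change of at least 1.5 and an unadjusted p under 0.05. The study's methods give the same cutoffs without saying whether p was adjusted. Exon lengths, positions and transcripts came from GENCODE vM21, in which 53186 of 55367 symbols had a match.

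The members and lists were chosen with earlier results of these data known, so the list counts are descriptions. Values in every library are given for the 4 members of each class with the largest called change in each comparison, the 3 with the highest mean FPKM, and *Acaa1a* and *Acaa1b*; of the other peroxisome genes the 3 highest and 3 lowest calls are named. *Dao*, *Pecr*, *Acox2*, *Pex2*, *Pex7*, *Pex14*, *Pex26*, *Abcd3* and members under the filter were given values beyond this. Alternatives covered a pseudocount of 0.1, no filter, a common sum, TMM factors, quantile normalization, only the groups compared, a replicate block, adjusted p, centring by exon share and leaving out each library. The fitting steps were tested on simulated data. Promoters are from RefSeq.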

Additional observations from a re-analysis of the deposited data

How the results depend on the processing

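In ADPKD against WT the 2 members called lower became 1 when the adjusted p was required, and the 0 called higher became 1 with the replicate number as a block, where 3 were called lower, as with a pseudocount of 0.1. Leaving out each library in turn gave 0 to 6 members called higher and 1 to 5 lower, and 3533 to 4870 genes called in all, beside 3970. In ADPKD+MMPP against ADPKD, centring by exon share took the members called lower from 7 to 4, and against WT from 8 to 4. Leaving out each library gave 19 to 21 members called higher and 7 to 9 lower (10046 to 10592 genes) against ADPKD, and 17 to 20 higher and 8 lower each time (10469 to 11106 genes) against WT.

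Centring reversed *Pex16* (0.70), *Pex7* (-0.10) and *Pex26* (0.55) against ADPKD, and *Pex16* (0.36), *Pex7* (-0.14), *Pex14* (-0.0821), *Pex6* (0.39) and *Pex26* (0.55) against WT. No other alternative run reversed a called member. The cause was not tested. Every setting kept the call of 1 of 2 members in ADPKD against WT, 21 of 26 in ADPKD+MMPP against ADPKD and 17 of 27 in ADPKD+MMPP against WT. Calls lost with other scalings than centring were *Pex16* and *Pex26* under quantile normalization against ADPKD, and *Pex26*, *Ech1*, *Gnpat* and *Acox2* against WT under quantile normalization or a common sum.

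The median change of all tested genes against ADPKD, -0.36, was -0.56 with a common sum, -0.25 with TMM factors and 0.10 with quantile normalization. In the same order the members' median of 1.11 was 0.81, 1.26 and 1.54. Of all calls against ADPKD, 39.3% were higher as fitted, and 31.5%, 43.4% and 54.0% in that order. Against WT the shares were 40.8% as fitted, and 31.5%, 43.9% and 52.9%. The labels do not say whether replicate numbers pair the samples. Deviations from the group means correlated at 0.129 between WT and ADPKD, -0.00796 between WT and ADPKD+MMPP, and 0.0137 between ADPKD and ADPKD+MMPP. The shallow treated libraries limit low genes, with 11 and 18 reads for *Pex26*.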
